A study of Mus musculus with 2 samples.

Results

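The ATP-binding cassette (ABC) transporter genes were described in mouse naive T cells of the CD4 and CD8 lineages. Members were taken by symbol, as every gene of the deposited tables whose name starts with Abc, then a subfamily letter from a to g, then a digit, and 50 of 23167 symbols met this rule. Expression is not part of the symbol rule, but the members were chosen with earlier results of these data known. The symbol rule leaves out Tap1, Tap2 and Cftr, which belong to the family under other names. Both cell types came from Foxp3-GFP mice on a C57/BL6 background, a reporter line carried by both groups, and were sorted by flow cytometry from spleen and lymph nodes. The gate took cells high for CD62L and low for CD44 that lacked CD25 and the Foxp3 reporter. The labels name no treatment and give neither the age nor the number of animals. RNA depleted of ribosomal RNA was sequenced as 1 library for each cell type. No difference between them therefore has a replicate check, no p-value is given, and cell type and library cannot be told apart.

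ABC proteins bind and hydrolyse ATP at a conserved nucleotide-binding domain, and most use the energy to move a substrate across a membrane. Subfamily A and part of G handle lipids and sterols, B holds the P-glycoproteins and mitochondrial and lysosomal transporters, C exports organic anions and drug conjugates, and D serves peroxisomes and lysosomes. The E and F proteins have no membrane domain and act on ribosomes. In T cells the family is known for drug efflux through P-glycoprotein, for sterol export that limits proliferation, and for peptide transport by TAP.

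The values are RPKM, reads scaled by gene length and sequencing depth, and levels were compared between genes on that per-length scale. Whole read counts could be recovered from the RPKM, with library totals of 24741945 reads for CD4 and 23853921 for CD8. Folds below are ratios of RPKM, each with an exact 95% interval from the split of the reads, which covers counting error only. T cell markers Cd3d, Cd3e and Cd3g summed to 991 RPKM in CD4 against 1058 RPKM in CD8, and the lineage markers went with the labels. The 3 CD4 lineage markers summed to 389 RPKM in CD4 against 11.1 RPKM in CD8, and the 2 CD8 lineage markers to 23.9 RPKM against 1306 RPKM. All 6 B cell markers were below 1 RPKM in both libraries except Cd79b, at 2.14 RPKM in CD4 against 28.8 RPKM in CD8. The 7 macrophage and monocyte markers summed to 12.0 RPKM in CD4 against 6.58 RPKM in CD8, with Cd14 listed at 0 in both. The 6 NK cell markers summed to 10.4 RPKM in CD4 against 124 RPKM in CD8. The part of these other cell types in the values given here was not tested. Bulk RNA cannot tell fewer cells of a type from less RNA per cell.

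Of the 50 genes, 25 reached 1 RPKM in at least 1 library, a share of 50%, against 44.1% of all symbols. These 25 are called the expressed genes here. Their median level was 11.2 RPKM in each library, where the medians were 14.1 RPKM for CD4 and 13.4 RPKM for CD8 over all 10228 genes at 1 RPKM or more. Of the summed RPKM of the 50 genes, the 4 soluble E and F genes carried 46.5% in CD4 and 44.7% in CD8. The 5 lipid and sterol transporters carried 25.1% and 26.3%. Levels of the expressed genes spanned 0.819 RPKM for Abcb10 to 71.9 RPKM for Abcf2 in CD4, and 0.737 RPKM for Abcc10 to 69.8 RPKM for Abcf1 in CD8. In the order of levels, 11 of 24 neighbouring pairs in CD4 and 12 of 24 in CD8 had overlapping counting intervals.

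**Figure D1:**
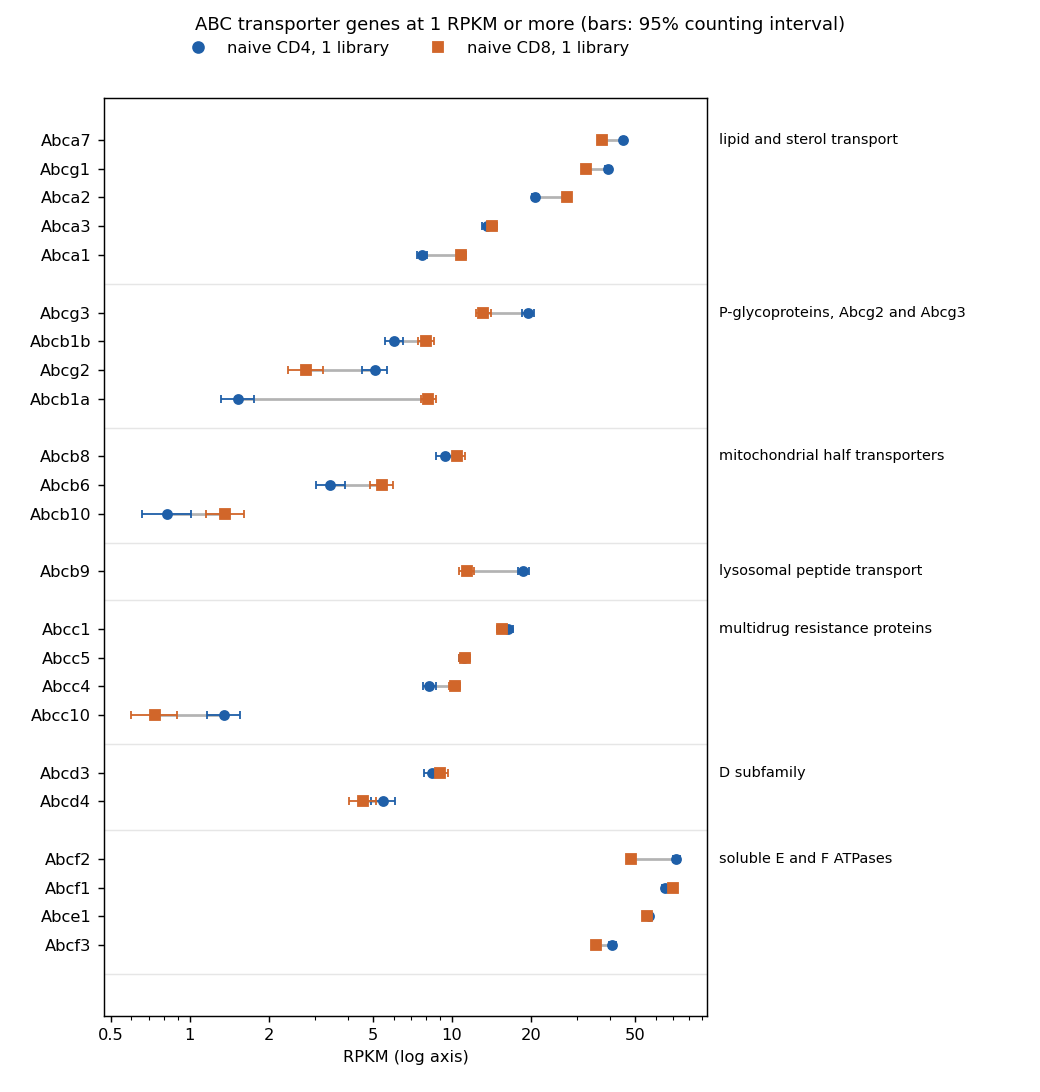
RPKM (log axis) of 23 expressed ABC genes by functional group, circles for the naive CD4 library and squares for the naive CD8 library, with bars for the 95% counting interval. Abcf1, Abcf2 and Abce1 sit highest in both libraries, and Abcb1a has the widest gap, from 1.53 RPKM in CD4 to 8.14 RPKM in CD8.

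Abcb1a was the only expressed gene with a 2-fold difference or more between the libraries. Such a difference was also uncommon among all compared genes. On the log2(RPKM + 1) scale, which understates differences of low genes, a 2-fold rule toward CD4 was met by 0 of the 25 expressed genes and by 2.41% of all compared genes. The same rule toward CD8 was met by Abcb1a alone, and by 3.07% of all compared genes. A fold of 1.5, chosen after seeing the data, was met toward CD4 by 2 genes, Abcg2 and Abcb9 (8.07% of all compared genes), and toward CD8 again by Abcb1a (7.47%). When the RPKM of each library were scaled to add up to 1000000, 10957 genes reached 1 RPKM in place of 10228. The median of all compared genes then moved by 0.21 toward CD4. The share of genes past the 2-fold rule that were higher in CD4 moved from 44.0% to 64.9%. The counts of the expressed genes stayed at 0 and 1. Without this scaling, the 24 expressed genes other than Abcb1a lay between -0.53 for Abcb6 and 0.69 for Abcg2. Taken as CD4 minus CD8, the expressed genes had a median log2 difference of 0.03, against 0.08 over all compared genes, and the median absolute difference was 0.29 against 0.25. Counting intervals lay above 1 for 11 genes and below 1 for 8, and spanned 1 for 6. The 19 genes with an interval on either side are 19 of 25, where 72% of all compared genes had one, 45% on the CD4 side and 27.1% on the CD8 side. At this depth such an interval is common.

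**Figure D2:**
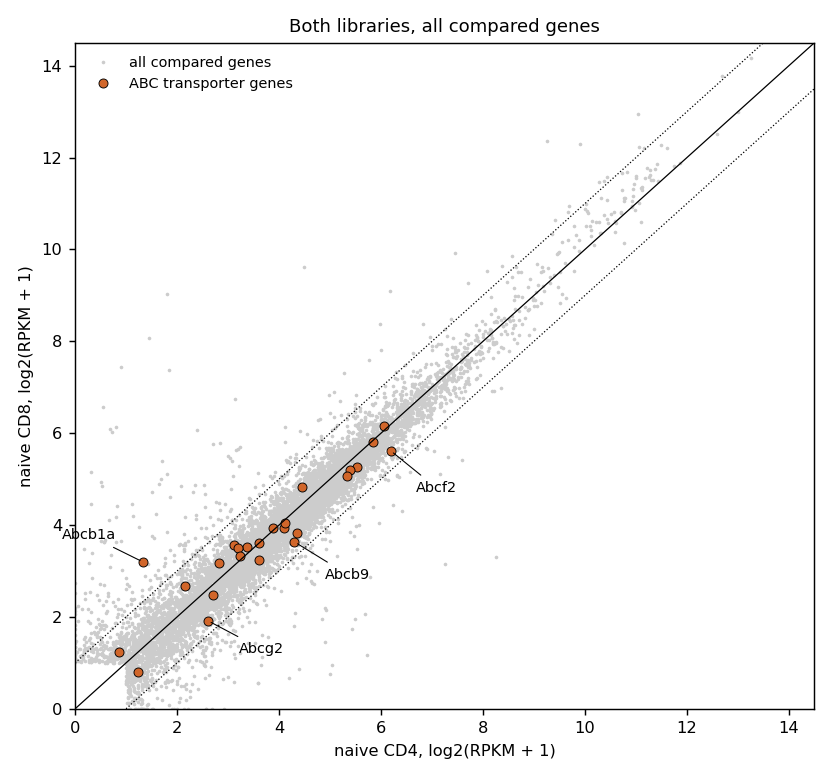
log2(RPKM + 1) in the naive CD4 library (horizontal) against the naive CD8 library (vertical) for all 10228 compared genes in grey and the 25 expressed ABC genes in orange. The solid line marks equality and the dotted lines a 2-fold difference, and Abcb1a is the single ABC gene outside the dotted lines.

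Abcb1a and Abcb1b encode the 2 mouse P-glycoproteins, the drug efflux pumps that a single MDR1 gene encodes in humans. Abcb1a was at 1.53 RPKM in CD4 (187 reads) and 8.14 RPKM in CD8 (961 reads), 5.33-fold higher in CD8 (4.55 to 6.27). Its log2 difference was -1.85 with the pseudocount of 1 RPKM, -2.34 with 0.1 RPKM and -1.01, just past the 2-fold rule, with 5 RPKM. At 1 RPKM, 86 of the 10228 compared genes (0.841%) had a difference as far toward CD8 or farther. Abcb1b was at 6.03 RPKM in CD4 (644 reads) and 7.98 RPKM in CD8 (822 reads), 1.32-fold higher in CD8 (1.19 to 1.47). The paralogs were therefore level in CD8, with an Abcb1a to Abcb1b ratio of 1.02 (0.928 to 1.12), and far apart in CD4, with a ratio of 0.253 (0.214 to 0.298). Abcb4, which encodes a phospholipid transporter of the same gene cluster, had 3 reads in CD4 and 0 in CD8.

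NK cell markers lay in the same direction as Abcb1a. Of the 6 markers, 4 were compared and all 4 met the 2-fold rule toward CD8. Klrd1 was at 7.85 RPKM in CD4 against 105.5 RPKM in CD8, and Eomes was at 1.83 RPKM and 12.6 RPKM. Klrb1c had 2 reads in CD4 against 85 in CD8, and Gzma had 12 reads in CD4 against 94 in CD8. Ncr1, which marks NK cells, had 4 reads in CD4 against 0 in CD8, and Klra8 was listed at 0 in both. Klrd1 and Eomes are also expressed by CD8 T cells. The part of these markers in the Abcb1a difference was not tested.

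The P-glycoprotein genes are close paralogs, so their reads can be shared. Their coding sequences, taken as the longest open reading frame of the GENCODE M21 transcripts and both of 3831 bases, were 88.2% identical over 3819 aligned bases. Of all windows of 50 bases in the longest transcript, 18.6% for Abcb1a and 19.6% for Abcb1b occurred unchanged in another gene's transcript, mostly the paralog's. How the authors' counting treated reads from such windows is not given in the sources used here, and both values are uncertain to that extent. The longest stretch without a difference is shown here because reads inside it cannot be assigned, and it covers 338 bases, from 1357 to 1694 of the Abcb1a coding sequence and from 1366 to 1703 of Abcb1b. Its first 150 bases are:
Shared stretch: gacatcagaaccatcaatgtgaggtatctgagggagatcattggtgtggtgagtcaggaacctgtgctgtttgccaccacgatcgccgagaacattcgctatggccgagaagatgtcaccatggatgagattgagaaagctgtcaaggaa

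Most windows of 50 bases do distinguish the genes. The 60 aligned bases that differ most are shown for contrast, with the 25 differing bases in capitals, from base 1913 to 1972 of the Abcb1a coding sequence and from 1922 to 1981 of Abcb1b:
Abcb1a: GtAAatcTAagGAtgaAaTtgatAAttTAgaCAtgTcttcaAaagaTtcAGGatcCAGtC
Abcb1b: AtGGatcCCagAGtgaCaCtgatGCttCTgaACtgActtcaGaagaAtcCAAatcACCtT

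In addition, 10.1% of the annotated Abcb1a exon bases are overlapped by Gm42686 on the opposite strand, and the strand setting of the authors' counting is not given.

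The start regions of the P-glycoprotein genes are shown because the paralogs had different levels in CD4. They are the RefSeq windows from 250 bases before to 50 bases after the gene start in GRCm38.p6, not the mm9 build of the deposited values, and lie at chr5:8566841-8567140 for Abcb1a and chr5:8797897-8798196 for Abcb1b, both on the plus strand. Capitals mark matches, on either strand, to the GC box GGGCGG, the CCAAT box CCAAT, the TATA box TATAAA and the E box CACGTG. No matches of these motifs overlap in the windows shown:
Abcb1a: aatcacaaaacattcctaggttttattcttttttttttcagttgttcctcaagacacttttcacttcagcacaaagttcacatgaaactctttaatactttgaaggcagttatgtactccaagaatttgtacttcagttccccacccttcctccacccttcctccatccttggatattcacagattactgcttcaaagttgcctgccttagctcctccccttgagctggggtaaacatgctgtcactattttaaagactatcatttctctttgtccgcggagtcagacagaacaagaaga
Abcb1b: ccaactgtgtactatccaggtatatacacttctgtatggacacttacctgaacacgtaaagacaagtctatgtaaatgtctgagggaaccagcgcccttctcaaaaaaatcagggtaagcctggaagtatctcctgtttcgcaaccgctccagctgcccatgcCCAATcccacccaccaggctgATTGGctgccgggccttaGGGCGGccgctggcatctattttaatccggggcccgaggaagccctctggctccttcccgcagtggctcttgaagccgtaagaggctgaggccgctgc

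The Abcb1a window was 40.3% G and C with 2 CpG dinucleotides and none of these letters, which says only that they are not in this window. The Abcb1b window was 55.0% G and C with 12 CpG dinucleotides, 1 GC box and 2 CCAAT boxes. Of all 32851 RefSeq start windows of this length, 35.7% held the GC box, 37.4% the CCAAT box, 13.6% the TATA box and 7.15% the E box.

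The expressed genes of the G subfamily were higher in CD4. Abcg2, the efflux pump that also marks the side population of stem cells, was at 5.08 RPKM in CD4 (311 reads) and 2.78 RPKM in CD8 (164 reads), 1.83-fold higher in CD4 (1.51 to 2.22). Abcg3, a rodent gene of the same subfamily, was at 19.5 RPKM in CD4 against 13.2 RPKM in CD8, 1.48-fold higher in CD4 (1.36 to 1.61). All 3 expressed G genes had an interval on the CD4 side, and 4 of the 7 expressed B genes had one on the CD8 side. The receptors that drive drug pump genes in liver, Nr1i2 and Nr1i3, were listed at 0 in both libraries. Of the other xenobiotic receptor genes, Ahr was at 0.560 RPKM in CD4 against 1.17 RPKM in CD8, and its partner Arnt was at 12.0 RPKM and 13.2 RPKM.

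**Figure D3:**
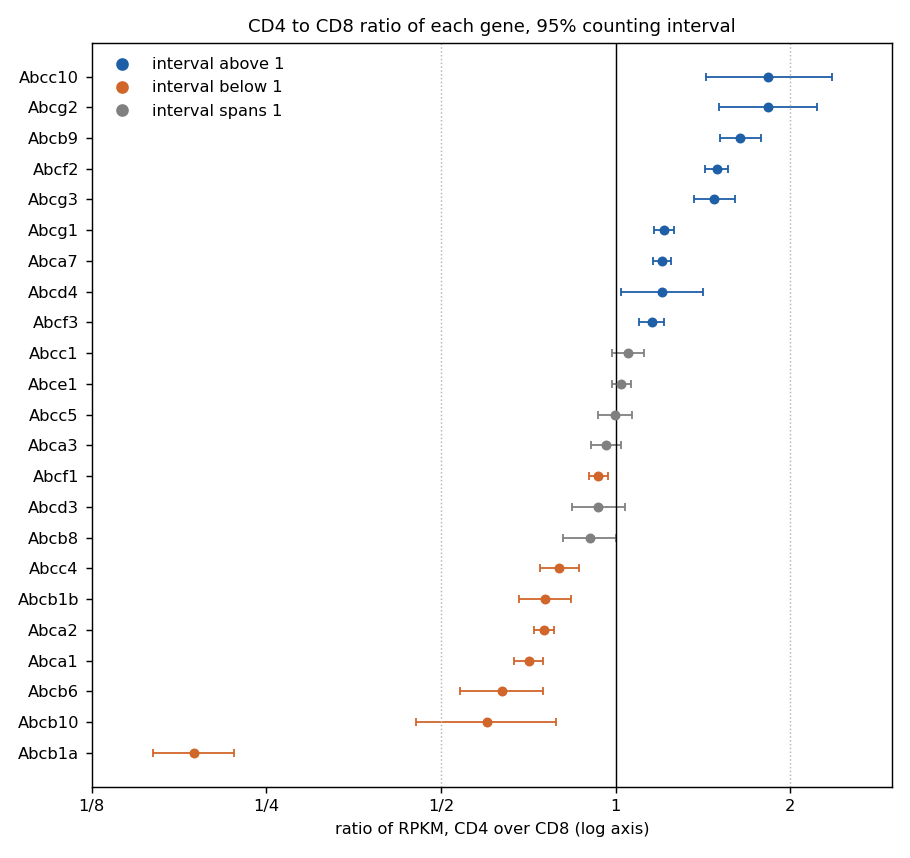
Ratio of RPKM in CD4 over CD8 (log axis) for 23 expressed ABC genes, with the 95% counting interval as bars, coloured by whether the interval lies above 1, below 1 or spans 1. Dotted lines mark a 2-fold difference, and Abcb1a lies beyond the left one with its whole interval.

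Among the lipid and sterol transporters, the pair of cholesterol exporters leaned in opposite directions. Abca1, which loads cholesterol onto lipid-poor apolipoprotein, was at 7.70 RPKM in CD4 (1944 reads) and 10.9 RPKM in CD8 (2648 reads), 1.41-fold higher in CD8 (1.33 to 1.5). Abcg1, which exports sterol to mature lipoprotein particles, was at 39.5 RPKM in CD4 (5666 reads) and 32.5 RPKM in CD8 (4503 reads), 1.21-fold higher in CD4 (1.17 to 1.26). Abcg1 was the more abundant exporter in each, at 5.13 times the Abca1 level in CD4 and 2.99 times in CD8. Abca7, a close relative of Abca1 linked to phospholipid handling, was the highest of the group at 45.0 RPKM in CD4 against 37.5 RPKM in CD8 (1.2-fold, 1.16 to 1.24). Abca2, an endolysosomal lipid transporter, went the other way at 20.8 RPKM in CD4 against 27.6 RPKM in CD8, 1.33-fold higher in CD8 (1.27 to 1.38). Abca3, the lipid transporter of lung lamellar bodies, was at 13.6 RPKM in CD4 against 14.2 RPKM in CD8, a difference not detectable at this depth (1.04-fold, 0.980 to 1.1). Of its annotated exon bases 9.75% are overlapped by D330041H03Rik on the opposite strand.

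Genes around the oxysterol receptors LXR, which induce Abca1 and Abcg1, were given as a list of receptors and sterol response targets. Of 14 genes 10 were compared, with 7 above 0, 3 below 0 and a median log2 difference of 0.22, against 0.08 over all compared genes. The LXR-beta gene Nr1h2, outside the naming rule and chosen because its protein induces these exporters, was at 27.6 RPKM in CD4 against 30.4 RPKM in CD8. Mylip, which encodes the LXR-induced ligase that degrades the LDL receptor, was at 55.4 RPKM in CD4 against 38.1 RPKM in CD8 (1.45-fold, 1.39 to 1.53). Arl4c, a small GTPase, led the list at 242 RPKM in CD4 against 303 RPKM in CD8. Pltp, the phospholipid transfer protein, was the 1 gene past the 2-fold rule toward CD8, with 2 reads in CD4 and 160 reads in CD8, a ratio of 83.0 with an interval of 22.6 to 691. No gene of this list passed it toward CD4.

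The B subfamily also holds mitochondrial transporters with a single ATPase domain, and of those described here Abcb6 and Abcb10 were both higher in CD8. Abcb8, a part of the mitochondrial potassium channel complex, was at 9.40 RPKM in CD4 (680 reads) and 10.4 RPKM in CD8 (727 reads), with an interval that spans 1. Abcb6, a porphyrin transporter, was at 3.44 RPKM in CD4 (248 reads) and 5.41 RPKM in CD8 (376 reads), 1.57-fold higher in CD8 (1.34 to 1.85). Abcb10, which supports heme synthesis, was lower still at 0.819 RPKM in CD4 (87 reads) and 1.37 RPKM in CD8 (140 reads), 1.67-fold higher in CD8 (1.27 to 2.21). The Abcb6 and Abcb10 values rest on few reads and on shared exons. Of the windows of 50 bases of Abcb6, 90.3% recur in the transcript annotated as Gm29253 on the same strand, and 10.3% of the Abcb10 exon bases are overlapped by Gm45890 on the opposite strand.

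The iron-sulfur cluster and heme genes that work with these transporters showed no common direction. Of 26 such genes, 25 were compared, with 13 above 0, 12 below 0, a median log2 difference of 0.03 and 0 past the 2-fold rule in either direction. The largest differences were in Slc25a37, the mitochondrial iron importer, at 10.2 RPKM in CD4 against 5.66 RPKM in CD8 (1.81-fold, 1.63 to 2.0), and Fech, the enzyme that inserts iron into heme, at 11.1 RPKM and 6.69 RPKM (1.65-fold, 1.47 to 1.86). Both were higher in CD4, and Glrx5 of the same list differed by nearly as much as Fech in the other direction. It was at 23.1 RPKM in CD4 against 36.2 RPKM in CD8 (1.56-fold higher in CD8, 1.47 to 1.67). Counting intervals of the list lay on the CD4 side for 7 genes and on the CD8 side for 8. Hspa9, a mitochondrial chaperone, was the highest of the list at 96.8 RPKM and 95.1 RPKM. Nubp2, a scaffold of cytosolic cluster assembly, followed at 37.7 RPKM in CD4 against 48.7 RPKM in CD8. Erythroid precursors make much heme, and the 6 erythroid and platelet markers summed to 7.40 RPKM in CD4 against 2.60 RPKM in CD8. Gata1 made up most of this, at 6.13 RPKM and 1.44 RPKM, while Alas2 had 11 reads in CD4 against 9 in CD8. The globin genes Hbb-b1 and Hba-a1 were listed at 0 in both, which is not read here as missing expression. The part of these markers in the heme gene differences was not tested.

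Abcb9, the lysosomal peptide transporter related to TAP, was at 18.7 RPKM in CD4 (1539 reads) and 11.4 RPKM in CD8 (904 reads), 1.64-fold higher in CD4 (1.51 to 1.78). Its log2 difference of 0.67 was exceeded among the expressed genes only by that of Abcg2. The TAP genes themselves, which the symbol rule leaves out, were each more abundant than any of the 50. Tap1 was at 155 RPKM in CD4 against 121 RPKM in CD8 (1.28-fold, 1.24 to 1.31), and Tap2 was at 114 RPKM and 111 RPKM, with an interval that spans 1 (0.991 to 1.06). The 9 genes of peptide loading onto MHC class I had a median log2 difference of -0.01, with 4 above 0, 5 below 0 and 0 past the 2-fold rule. B2m, the light chain of class I, was at 1380.5 RPKM in CD4 against 2173 RPKM in CD8 (1.57-fold higher in CD8, 1.55 to 1.60). Tapbpl, the TAP-related editor of bound peptides, was at 26.1 RPKM in CD4 against 37.5 RPKM in CD8. Calr, a chaperone of the loading complex, was at 247 RPKM and 238 RPKM.

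The multidrug resistance proteins of the C subfamily export glutathione conjugates, leukotrienes and nucleotides, and 4 of the subfamily's 10 genes were expressed. Abcc1, the exporter of leukotriene C4 and glutathione conjugates, was at 16.4 RPKM in CD4 (1995 reads) and 15.6 RPKM in CD8 (1830 reads), with an interval that spans 1 (0.986 to 1.12). Abcc5, a cyclic nucleotide exporter, was at 11.2 RPKM in each library (1701 and 1643 reads), and its ratio of 0.998 had an interval of 0.932 to 1.07. Abcc4, which exports cyclic nucleotides and prostaglandins, was at 8.19 RPKM in CD4 against 10.2 RPKM in CD8, 1.25-fold higher in CD8 (1.16 to 1.35). Abcc10 was low, at 1.35 RPKM in CD4 (190 reads) and 0.737 RPKM in CD8 (100 reads), 1.83-fold higher in CD4 (1.43 to 2.36). With the pseudocount its log2 difference was 0.44, well under the 2-fold rule.

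Genes of glutathione metabolism, the source of many substrates of these exporters, were more spread than the exporters. Of 22 genes 17 were compared, with 7 above 0, 10 below 0 and a median log2 difference of -0.10. Ggt1, the ectoenzyme that breaks down exported glutathione and its conjugates, was at 8.17 RPKM in CD4 (406 reads) and 49.6 RPKM in CD8 (2376 reads), 6.07-fold higher in CD8 (5.46 to 6.76), and was the 1 gene of the list past the 2-fold rule. Gstt2, a glutathione transferase, was at 16.8 RPKM and 33.4 RPKM, and Mgst2, a microsomal glutathione transferase, at 47.1 RPKM and 88.8 RPKM. Toward CD4 the largest difference of the list was in Gsta4, at 1.83 RPKM in CD4 (43 reads) and 0.485 RPKM in CD8 (11 reads). Gpx1, a glutathione peroxidase, was the highest at 103 RPKM and 114 RPKM. Of 9 genes that handle leukotrienes and sphingosine 1-phosphate, a lipid that Abcc1 can also export, 4 were compared and all 4 were above 0, with a median of 0.14 and 0 past the 2-fold rule. S1pr1, the egress receptor, was at 369.5 RPKM in CD4 against 348 RPKM in CD8, Lta4h at 83.4 RPKM and 70.2 RPKM, and Sgpl1, which degrades the lipid, at 27.8 RPKM and 24.2 RPKM. Ltc4s and Alox5, the enzymes of leukotriene synthesis upstream of Abcc1 export, were listed at 0 in both libraries.

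The D subfamily serves peroxisomes and lysosomes. Abcd3, a peroxisomal transporter of branched-chain and bile acid precursors, was at 8.42 RPKM in CD4 (703 reads) and 9.02 RPKM in CD8 (726 reads), with an interval that spans 1. Abcd4, which acts in lysosomal cobalamin release, was at 5.48 RPKM in CD4 against 4.56 RPKM in CD8 (1.2-fold, 1.02 to 1.41). Abcd2, a peroxisomal fatty acid transporter, stayed under 1 RPKM with 22 reads in CD4 and 34 in CD8. Peroxisome genes leaned toward CD4 by small amounts, a direction that the median of all compared genes shared. Of 23 such genes, 22 were compared, with 18 above 0, 4 below 0, a median log2 difference of 0.21, against 0.08 over all compared genes, and 0 past the 2-fold rule. Pex7, an import receptor, was at 13.6 RPKM in CD4 against 8.54 RPKM in CD8 (1.59-fold, 1.49 to 1.69), and Ehhadh, an enzyme of peroxisomal beta-oxidation, at 9.60 RPKM and 6.03 RPKM. The highest were Scp2, a sterol carrier and thiolase, at 77.4 RPKM and 63.7 RPKM, and Cat, catalase, at 48.2 RPKM and 39.3 RPKM.

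The soluble E and F genes held the 3 highest levels of the 50 genes in each library. Abcf2 had the highest level in CD4, at 71.9 RPKM (4550 reads), against 48.1 RPKM in CD8 (2938 reads), 1.49-fold higher in CD4 (1.43 to 1.56). Abcf1, a factor that binds the initiation factor eIF2, was highest in CD8 at 69.8 RPKM, against 65.2 RPKM in CD4 (1.07-fold higher in CD8, 1.03 to 1.11), a direction that turned when the RPKM of each library were scaled to add up to 1000000 (log2 difference 0.11 against -0.10). Abce1, which splits ribosomes after termination, was nearly level at 56.7 RPKM (5321 reads) and 55.4 RPKM (5013 reads), a ratio of 1.02 with an interval of 0.984 to 1.06. Abcf3, a relative of the yeast activator of the kinase Gcn2, was at 41.0 RPKM in CD4 against 35.5 RPKM in CD8 (1.15-fold, 1.1 to 1.21). Abcf2 thus led in CD4 and stood behind Abcf1 and Abce1 in CD8. The 14 genes of ribosome recycling, termination and Gcn2 signalling were all compared, with 8 above 0, 6 below 0, a median log2 difference of 0.01 and 0 past the 2-fold rule. Zfp598, a sensor of collided ribosomes, was at 17.5 RPKM and 12.9 RPKM (1.35-fold higher in CD4, 1.25 to 1.47). Atf4, the effector of Gcn2 signalling, was at 105 RPKM in CD4 against 78.4 RPKM in CD8 (1.33-fold, 1.27 to 1.39), and Eif2s3x, an eIF2 subunit, at 80.2 RPKM and 87.5 RPKM. Eif2s2 of the same list differed by nearly as much as Atf4 in the other direction. It was at 28.2 RPKM in CD4 against 37.7 RPKM in CD8 (1.34-fold higher in CD8, 1.26 to 1.43).

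**Figure D4:**
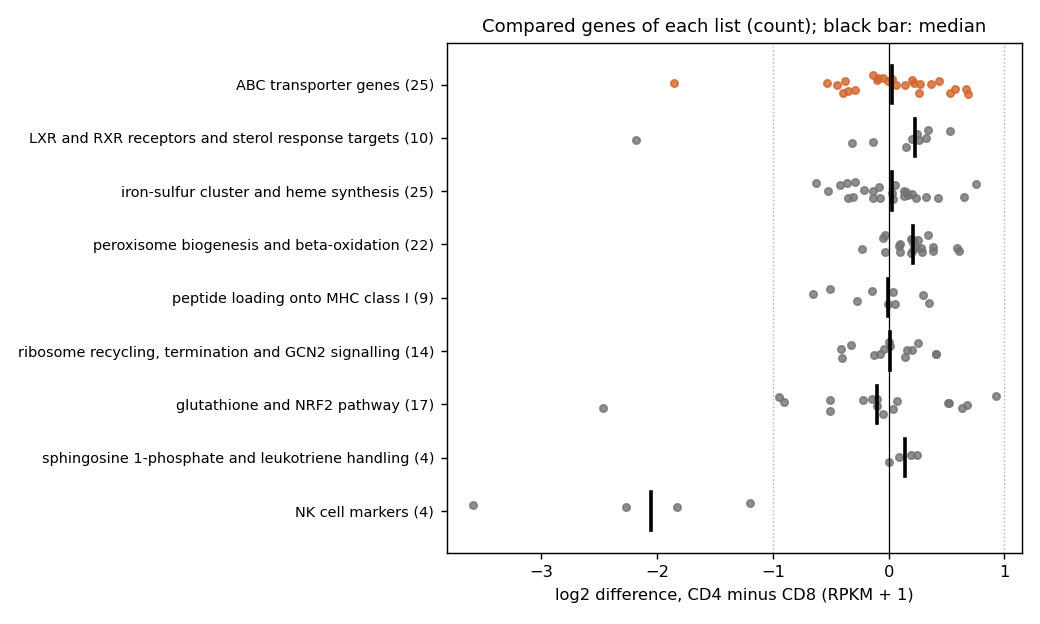
log2 difference (CD4 minus CD8, on RPKM + 1) of every compared gene among the 50 members, of 7 partner lists and of the NK cell markers. The number of compared genes is in brackets, with a black bar at each median and dotted lines at a 2-fold difference. The ABC genes centre near 0 with Abcb1a alone past -1, while the peroxisome list centres at 0.21. Of the 6 NK cell markers, the 4 that were compared lie below -1.

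The other 25 genes stayed under 1 RPKM in both libraries, and 13 of them had no reads in either, a share of the 50 to be read against 38% of all symbols. The 13 are Abca8a, Abca9, Abca12, Abca14, Abca15, Abca16, Abcb5, Abcc2, Abcc6, Abcc8, Abcc12, Abcg5 and Abcg8. A count of 0 allows up to 3 reads, and a listed 0 is not read here as missing expression, because Rpl26 and Ndufs5, a ribosomal and a respiratory chain gene that every cell uses, also stood at 0 in each library. These were picked with their values known. The remaining 12 had at most 35 reads in a library, and 7 of them had 10 or fewer in both. Abcb11, the bile salt export pump of liver, had 19 reads in CD4 and 35 in CD8, close to the 22 and 34 of Abcd2. Abcc3, an exporter of bile acids and glucuronides, had 16 reads in CD4 and 1 in CD8, Abca4, the retinal transporter, had 11 and 0, and Abca17 had 0 and 9. All of these stayed under 1 RPKM and were not compared. The sulfonylurea receptor genes were near or at 0, with 1 read in each library for Abcc9 and none for Abcc8, and of their potassium channel partners Kcnj11 was listed at 0 and Kcnj8 had 6 reads in CD4 against 39 in CD8.

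Some neighbouring members had like levels and others did not. In the reference gene order, 15 of the 50 genes stand in 5 groups with no other protein-coding gene between them. All 10 genes of 3 groups were under 1 RPKM, namely Abca5, Abca6, Abca8a, Abca8b and Abca9, then Abca14, Abca15 and Abca16, and then Abcg5 and Abcg8, the intestinal and biliary sterol exporters. The other 2 groups were mixed. Abca3, with 2167 reads in CD4 and 2173 in CD8, stands beside Abca17, and Abcb1a and Abcb1b stand beside Abcb4.

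The start regions of expressed and low members differed in base composition, as they did among all genes. RefSeq windows were at hand for 19 of the 25 expressed genes (25 windows) and for 19 of the 25 low genes (20 windows). The median window had 62.7% G and C and 23 CpG dinucleotides for the expressed genes, and 52.7% and 7.5 for the low genes. Over all compared genes of the series these medians were 60.7% and 21, and over the remaining symbols 52.0% and 5. The GC box was in 17 of the 25 windows of expressed genes and in 4 of the 20 of low genes, against 63.7% of the windows of all compared genes and 31.9% of the rest. The CCAAT box was in 7 of 25 and 9 of 20, against 38.3% of the windows of all compared genes and 38.2% of the rest. The TATA box was in 4 of 25 and 3 of 20, against 6.65% and 17.4%, and the E box in 3 of 25 and 3 of 20, against 10.7% and 5.68%. Abcb1a, at 40.3% G and C, had the lowest value of the windows of expressed genes.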

How the data were processed

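RNA was measured in 1 naive CD4 and 1 naive CD8 library, prepared with a SOLiD low-input whole-transcriptome protocol per the labels. The authors deposited RPKM, with 1 symbol and 1 value on each of 26882 rows (23167 symbols, with identical values where a symbol is repeated, counted once). TopHat, HTSeq and mm9 are named, without versions, in the submitters' processing notes. The sources used here do not give the annotation, strand setting or treatment of multiply mapped reads.

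Read totals were found as the whole numbers at which low genes have whole reads and whole lengths, scaled by GENCODE M21 transcript lengths. They gave whole reads, to the precision printed, for 12733 of the 12735 genes with a value in each library. A CD8 total 1000 reads away gave them for 1 of 980. Lengths were the smallest possible for 29 of the 37 members with reads. The others took the multiple nearest an annotated length, so those reads may be off by a whole factor, which leaves the fold unchanged and alters its interval.

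With 1 library per group no test was made. Genes that reached 1 RPKM in either library were compared by log2((CD4 RPKM + 1)/(CD8 RPKM + 1)), and single genes by the RPKM ratio with an exact Clopper-Pearson 95% interval. PCR copies are not separate molecules, so intervals cover counting error only. The rule named every member at 1 RPKM or more, of which some are not reported here singly. From each partner list the 2 highest genes by mean RPKM, the 2 with the largest difference and any past the 2-fold rule were named. Partner genes at 0, Tap1, Tap2, Nr1h2, Kcnj8, Glrx5, Gsta4, Eif2s2 and single markers were named outside this rule. Members, lists and rules were chosen with earlier results of these data known. Alternatives were other pseudocounts, filters and scalings. Calculations were tested on simulated data, with Python 3.11.15, numpy 2.4.6, pandas 2.3.3, scipy 1.17.1 and biopython 1.88.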

Additional observations from a re-analysis of the deposited data

How the results depend on the processing

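No paired analysis was possible because each group has 1 library. The counts of genes past the 2-fold rule were 0 toward CD4 and 1 toward CD8 under pseudocounts of 0.1 and 5 RPKM, subtraction of the median gene's difference, scaling of each library to add up to 1000000, no filter on low values and a filter at 5 RPKM. With 5 RPKM added, Abcb1a passed it narrowly, at -1.01 in place of -1.85, and with 0.1 RPKM it was at -2.34. The median log2 difference of the expressed genes was 0.24 after the rescaling, in place of 0.03, while that of all compared genes was 0.29. Under the other alternatives it lay between -0.05 (centred) and 0.03. Signs turned in the rescaling for Abca3, Abcb8, Abcc5, Abcd3 and Abcf1, and in the centring for Abcc1 and Abce1. Of these only Abcf1 had a counting interval on 1 side of 1. Over all compared genes a pseudocount of 0.1 RPKM put 428 and 462 genes past the 2-fold rule toward CD4 and CD8. A pseudocount of 5 RPKM put 73 and 125 past it, in place of 247 and 314. The rescaling put 600 and 324 past it, but among 10957 genes in place of 10228. The limit of 1 RPKM and the pseudocount of 1 RPKM were applied to the rescaled values there. Alternatives chosen after seeing the data were a fold of 1.5, which 2 genes passed toward CD4 and 1 toward CD8, where 8.07% and 7.47% of all compared genes did, and a counting interval on 1 side of 1, which held for 11 and 8. Abcb10 and Abcc10 had fewer than 200 reads in each library, which limits their precision.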
